A study of Mus musculus with 17 samples.

Results

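The TRIM genes encode a large family of ubiquitin ligases and related proteins, and their transcripts were followed in the diaphragm of mice with and without Lewis lung carcinoma (LLC) tumors and with and without recombinant Fibcd1 (rFibcd1). Members were chosen by symbol: every gene in the table named Trim followed by a number was taken, without hyphenated entries and without Trim63 and Trim32. This gave 65 of the 47643 listed symbols. Of these, 38 reached at least 1 TPM (transcripts per fixed total of transcripts, a unit corrected for gene length) in at least 3 samples and were tested, 27 stayed below this filter, and 3 of the 27 (Trim42, Trim60 and Trim75) were at 0 in every sample.

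RNA was sequenced from the diaphragm, the main breathing muscle, of 17 male C57BL/6J mice aged 4 months. The 4 groups were tumor-free mice with mock injections (Control, n = 5), tumor-free mice given rFibcd1 (Control + rFibcd1, n = 5), tumor-bearing mice with mock injections (LLC, n = 3) and tumor-bearing mice given rFibcd1 (LLC + rFibcd1, n = 4). LLC cells, a mouse lung carcinoma line, had been implanted under the skin of both flanks, and rFibcd1, a recombinant form of a secreted muscle protein, was injected into the peritoneal cavity during the last week, so the groups model a short treatment of a subcutaneous tumor and not a lung tumor. Replicate numbers are those of the sample titles, each sample is taken as 1 mouse, and no label gives a batch or date.

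Most TRIM proteins share a tripartite module of a RING domain, which recruits a ubiquitin-conjugating (E2) enzyme, one or more B-boxes, and a coiled coil through which they pair. Some members lack the RING domain. A variable C-terminal part selects the substrate, and subfamilies are told apart by it: sarcomere and microtubule binding in the muscle MuRF proteins, chromatin reading in the TIF1 proteins, and a PRY-SPRY domain in the antiviral proteins related to Trim5. Many of the latter are induced by interferon in leukocytes and other cells, whereas the MuRF proteins are known in striated muscle for their part in protein turnover.

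The estimated depth was 50700000 to 54600000 reads per sample, so that 1 TPM stood for 23.9 to 26.7 reads in a gene of 1 kb. Mitochondrial transcripts took 45.9% to 48.4% of TPM in Control and 41.3% to 44.3% in LLC, which did not overlap, 45.4% to 50.4% in Control + rFibcd1 and 43.7% to 46.5% in LLC + rFibcd1. The part of this shift in the members' changes was not tested beyond the rescaling given with the counts. The median change over the 13305 genes tested from Control to LLC was 0.16 (log2), and 0.07 after rescaling without mitochondrial genes, and changes of members are to be read against it. The 10 myofiber markers summed to 50688 to 65078 TPM over the 17 samples. Leukocyte markers also moved with the tumor. The 8 B cell markers summed to 257 to 328 TPM in LLC against 2.77 to 111 in Control, 7 macrophage markers to 862 to 970 against 255 to 549, and none of them was at 0 in a whole group. Control + rFibcd1 replicate 1 stood apart, with 1664 TPM of macrophage markers against 205 to 453 in the other 4 mice of its group. Most of this sum was 1 gene, Lyz2, at 1459 TPM against 151 to 353 TPM in the other 4 mice. In bulk tissue, more or fewer cells of a type and more or less RNA per cell cannot be told apart.

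Transcripts of the family were dominated by the muscle members. In Control, Trim72 averaged 247 ± 16 TPM and Trim54 246 ± 16 (SD, n = 5). Their ranges overlapped, and both stood above all remaining members. Trim35 (52.7 ± 4.4), Trim55 (44.8 ± 2.8), Trim16 (24.9 ± 3.0) and Trim28 (21.9 ± 1.8) came next, followed by Trim7 and Trim41 at 18.8 each, Trim8 at 17.1 and Trim44 at 16.5. In all, 2 members averaged at least 100 TPM, 20 lay from 5 to 100, 10 from 1 to 5, 15 from 0.1 to 1 and 18 under 0.1. Trim72, Trim54 and Trim55 held 56.2% to 70.7% of all TRIM TPM in each sample. The summed TPM of the family was 836 ± 22 in Control, 828 ± 36 in Control + rFibcd1, 848 ± 22 in LLC and 870 ± 17 in LLC + rFibcd1 (SD; n = 5, 5, 3 and 4), and it lay between 791 and 885 TPM in every sample.

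**Figure D1:**
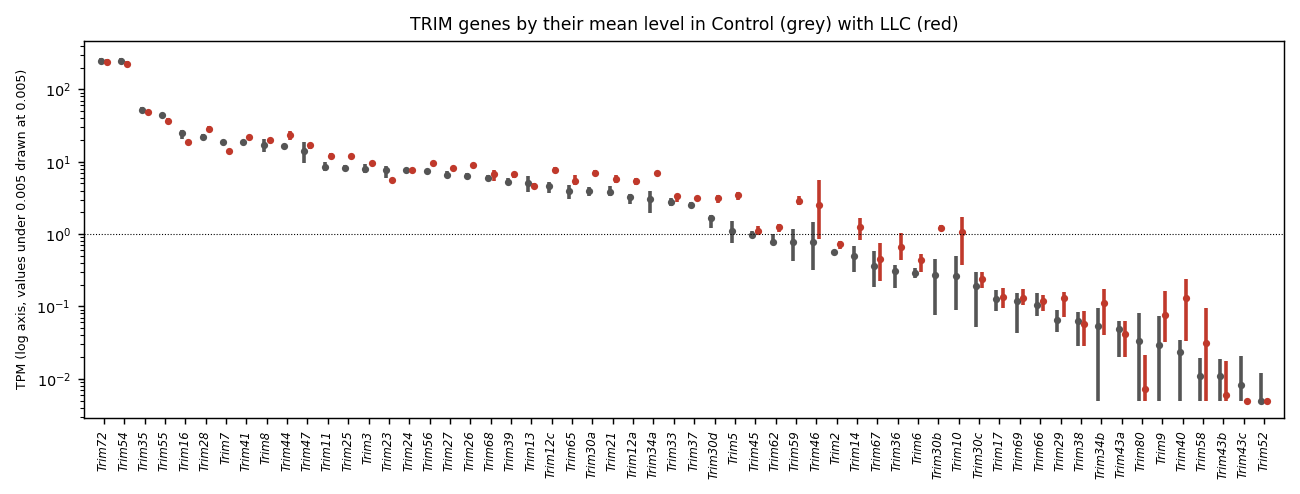
Levels of 58 TRIM genes in TPM on a log axis, ordered by their Control mean; the 7 genes at 0 in every Control sample are left out. Dots are means and bars the range over mice of Control (grey, n = 5) and LLC (red, n = 3), values under 0.005 TPM are drawn at 0.005, and the dotted line is 1 TPM. The muscle genes Trim72 and Trim54 lie near 250 TPM in both groups, while Trim5, Trim59 and Trim30b have red bars wholly above the grey ones.

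The muscle-enriched members have separate tasks. Trim54 (MuRF3) and Trim55 (MuRF2) bind microtubules and the sarcomere, Trim72 (MG53) helps to reseal torn muscle membranes, and Trim7 binds glycogenin, the primer of glycogen synthesis. Trim55 was at 40.9, 42.7, 46.1, 46.6 and 47.5 TPM in Control. It was at 35.6, 39.7 and 34.2 TPM in LLC, and at 45.8, 41.1, 43.2 and 47.4 TPM in LLC + rFibcd1. All LLC mice lay below all Control mice and below all LLC + rFibcd1 mice, while the treated tumor-bearing mice lay within the range of both tumor-free groups (Control + rFibcd1, 40.5 to 47.5 TPM). Trim55 fell by 0.29 ± 0.07 from Control to LLC on the log2(TPM + 1) scale used for every change here (SE; adjusted p = 0.0113, limma with Benjamini-Hochberg adjustment over all genes tested). Its change from LLC to LLC + rFibcd1 did not pass the test (0.28 ± 0.07, adjusted p = 0.133, limma).

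Trim7 was at 18.5, 17.4, 20.1, 20.02 and 18.2 TPM in Control and at 14.8, 13.8 and 13.9 TPM in LLC. It was at 14.8, 19.3, 14.6, 20.5 and 18.0 TPM in Control + rFibcd1 and at 11.0, 12.2, 14.4 and 14.1 TPM in LLC + rFibcd1. The tumor-bearing mice lay below the tumor-free mice of the same treatment with no overlap in both comparisons. Unlike for Trim55, the treated tumor-bearing mice were not in the Control range, but this difference between the genes was not tested. Trim7 fell by 0.39 ± 0.11 from Control to LLC (adjusted p = 0.0162) and by 0.40 ± 0.10 from Control + rFibcd1 to LLC + rFibcd1 (adjusted p = 0.0233, limma).

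Trim72 was at 221, 261 and 225 TPM in LLC and at 298, 270, 265 and 270 TPM in LLC + rFibcd1, against 229 to 270 in Control. The treated tumor-bearing mice all lay above the untreated ones. Neither the change from Control to LLC (-0.07 ± 0.09, adjusted p = 0.54) nor that from LLC to LLC + rFibcd1 (0.23 ± 0.09, adjusted p = 0.20) passed the test. Trim54 was at 217, 246 and 216 TPM in LLC against 231 to 273 in Control (-0.12 ± 0.08, adjusted p = 0.254), and its groups overlapped. Of the 4 muscle members, then, 2 fell in LLC and none rose, where 6.02% of all genes fell and 29.7% rose. Antisense genes lie over 26.6% of the exon bases of Trim54, 27.6% of those of Trim72 and 8.31% of those of Trim7, and whether the counting used strand is not settled in the sources used here, so reads of these partners may be included. The 10 myofiber markers also moved: their sum was 50688 to 54026 TPM in LLC and 59118 to 63989 in Control, and 5 of the 10 were lower in LLC by the same test with none higher. In LLC + rFibcd1 the sum was 52767 to 61114 TPM, overlapping both; 9 of the 10 markers had higher fitted values than in LLC, and none was called (2 at an unadjusted p under 0.05, limma). Their part in the values of Trim55, Trim72 and Trim7 was not tested.

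**Figure D2:**
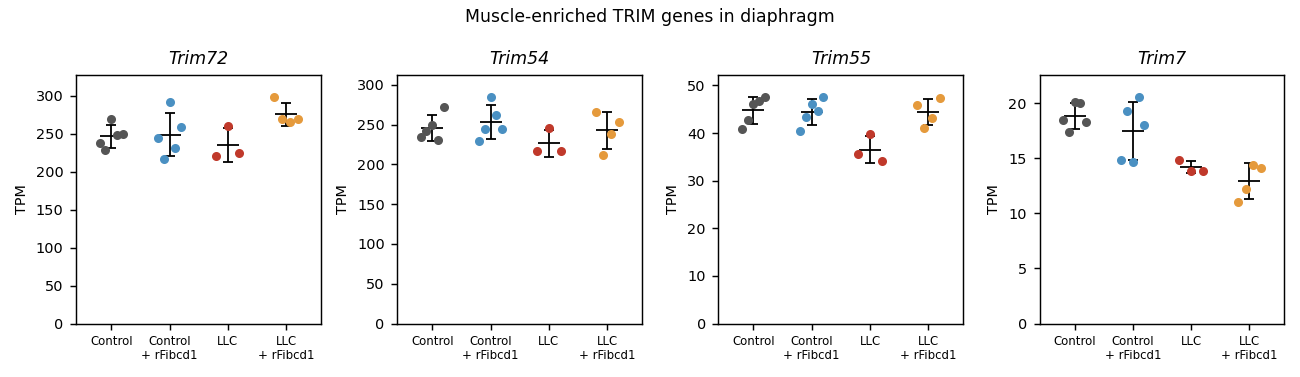
TPM of Trim72, Trim54, Trim55 and Trim7 in every mouse (points), with mean and SD (black), in the 4 groups; the axes start at 0. For Trim55 the 3 LLC mice (34.2 to 39.7 TPM) lie below all mice of the remaining groups, and for Trim7 both tumor-bearing groups lie low, between 11.0 and 14.8 TPM.

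The tumor effect was then read over the whole family. From Control to LLC, 25 of the 38 tested members passed an adjusted p of 0.05 (65.8%), where 35.8% of all genes tested did. Higher in LLC were 21 members (55.3%, against 29.7% of all genes) and lower were 4 (10.5%, against 6.02%). Of the called members 84.0% were higher, as were 83.2% of all called genes. Trim62 reached 1 TPM only in tumor-bearing mice, and Trim10 and Trim30b in no Control mouse (Control maxima of 0.996, 0.496 and 0.453 TPM). They passed the filter through groups in which they were higher, and the same filter was applied to all genes. The median change was 0.31 over the 38 members and 0.16 over all genes. In 26 members the LLC and Control mice did not overlap, 22 higher and 4 lower, where this held for 40.2% of all genes (33.6% higher and 6.67% lower). At an unadjusted p under 0.05 with over 50% change, 10 members were higher and 0 lower, 26.3% against 12.7% of all genes. The 4 that fell were Trim55, Trim7, Trim16 and Trim23. TPM sum to a fixed total, and the median gene was higher in LLC while the mitochondrial share was lower. The split of the calls depended on scaling. Median-ratio scaling brings the median change of all genes to 0.0055. With it, 14 members were higher and 6 lower (2078 and 1863 of all genes). After rescaling without mitochondrial genes, 15 were higher and 5 lower (2480 and 1465 of all genes). The calls rested on LLC replicate 3: without it 0 members were called, 23 of the 25 kept an unadjusted p under 0.05 and all 25 kept their direction (adjusted p of 0.0697 to 0.221, limma), and 0.18% of all genes were called. Without LLC replicate 1, 12 were called, and 17.1% of all genes.

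**Figure D3:**
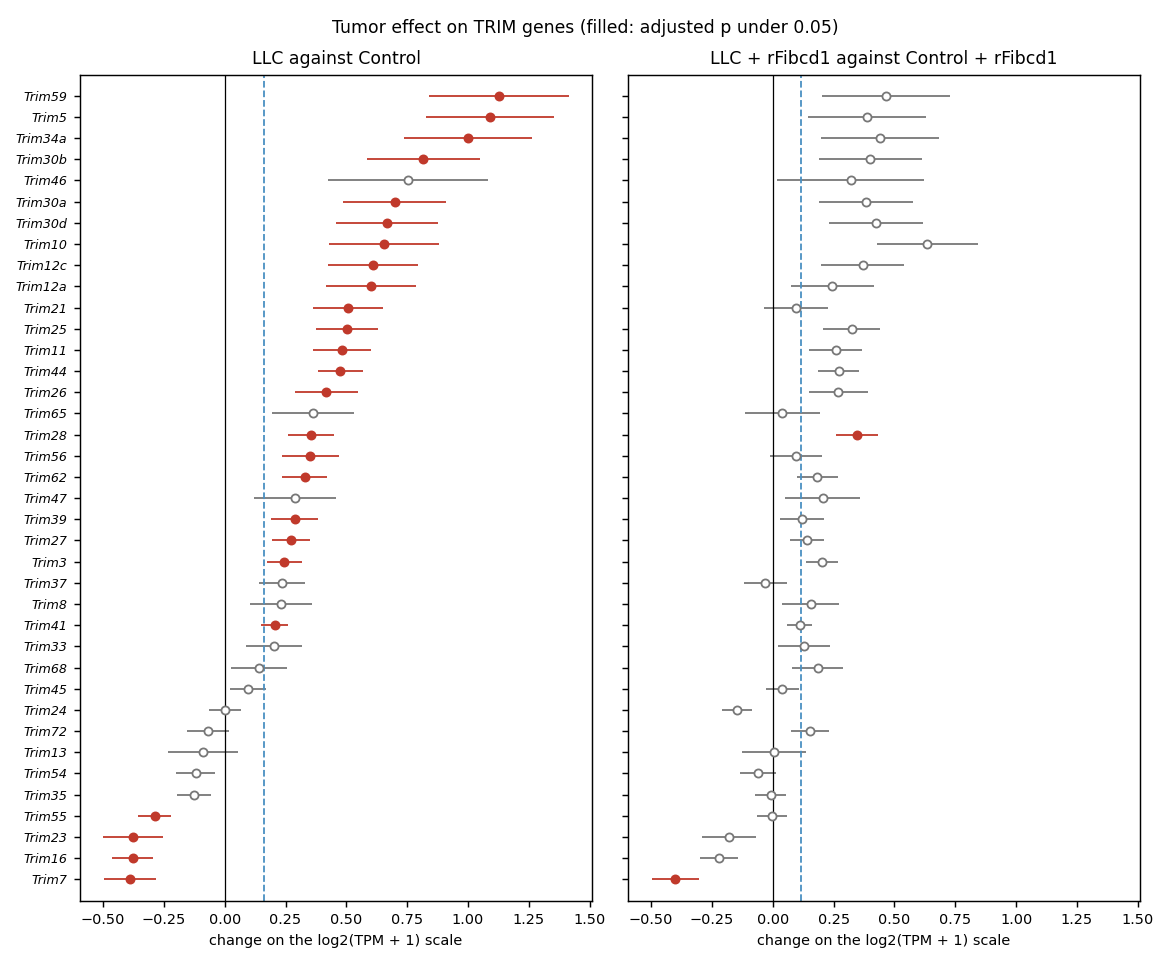
Change of the 38 tested TRIM genes on the log2(TPM + 1) scale with its SE (bars), for LLC against Control (left) and LLC + rFibcd1 against Control + rFibcd1 (right); filled red points have an adjusted p under 0.05 and the dashed blue line is the median of all genes tested (0.16 and 0.11). On the left, 21 red points lie to the right and 4 to the left, and on the right the red points are Trim28 and Trim7.

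Of the 10 largest called changes, 7 belonged to the Trim5/Trim30-type genes, which lie in one stretch of chromosome 7 (GRCm38, 104218793 to 104507849). Most of them encode a PRY-SPRY domain, and products of the group restrict retroviruses or dampen inflammatory signaling. Chromosome 7 holds 16 of the 65 members and chromosome 11 holds 11. The group counts 10 members, of which 7 passed the filter (Trim5, Trim12a, Trim12c, Trim30a, Trim30b, Trim30d and Trim34a) and Trim6, Trim30c and Trim34b did not. All 7 tested genes rose in LLC, where 29.7% of all genes rose, with a median change of 0.70 and a range of 0.60 to 1.09. No LLC mouse overlapped a Control mouse in any of them. Trim30b passed the filter only through mice outside Control, where it was at most 0.453 TPM. The untested Trim6, Trim30c and Trim34b overlapped between LLC and Control, so the count of 7 of 7 depends in part on the filter. The count was 7 of 7 after median-ratio scaling and after rescaling without mitochondrial genes as well, and 3 of 7 without LLC replicate 1 (17.1% of all genes called) and 0 of 7 without LLC replicate 3 (0.18% of all genes called; median change 0.64, adjusted p of 0.0718 to 0.106).

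Because interferon-induced genes often carry a core of 2 GAAA repeats near the start site (the interferon-stimulated response element), the letters GAAANNGAAA were searched on both strands in RefSeq promoter windows (GRCm38.p6, 250 bases before to 50 after a start). They occurred in 3.44% of the 32851 windows and in 3.72% of the 9875 tested genes that have one. Among the members, 9 of the 50 with a window held them. By outcome these were 8 of 19 members that rose in LLC (42.1%, against 4.75% of all genes that rose), 0 of the 2 that fell, 0 of the 9 that were not called, and 1 of 20 below the filter (Trim2). These counts are a description, since they were made after the calls were known and several of the windows are copies of each other. The sites of the members that rose are shown with 30 bases each, written 5′ to 3′ along the gene, with the match in capitals, to make the shared sequence visible.
Trim5 (chr7:104288136-104288165, minus strand): agagttgtggTTTCTGTTTCatttccagag
Trim12c (chr7:104353359-104353388, minus strand): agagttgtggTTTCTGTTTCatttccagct
Trim30a (chr7:104465210-104465239, minus strand): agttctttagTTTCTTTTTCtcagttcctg
Trim34a (chr7:104244457-104244486, plus strand): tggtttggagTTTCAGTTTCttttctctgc
Trim21 (chr7:102565447-102565476, minus strand): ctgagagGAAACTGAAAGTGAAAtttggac
Trim26 (chr17:36836979-36837008, plus strand): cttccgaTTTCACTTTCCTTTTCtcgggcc
The site of Trim12a (chr7:104315466-104315495, minus strand) had the 30 bases of Trim5, and that of Trim30d (chr7:104507871-104507900, minus strand) the 30 bases of Trim30a, while Trim12c matched Trim5 at 28 of 30. A second Trim30a window, at another start, held the same 10-base match (chr7:104446104-104446133, minus strand), 2 bases after that start. The match began 49 bases before the start in Trim5, 29 in Trim12c, 36 in Trim30a, 41 in Trim30d and 160 in Trim26, and 13 bases after it in Trim21 and 10 in Trim34a and in Trim12a. Trim21 and Trim26 held 2 overlapping matches each, which together span 16 bases. A match is not a measured binding site.

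Trim5, whose primate counterpart blocks incoming retroviral capsids, was at 1.20, 1.53, 1.15, 0.933 and 0.763 TPM in Control and at 3.83, 2.95 and 3.67 TPM in LLC. In LLC + rFibcd1 it was at 1.09, 2.64, 2.98 and 0.903 TPM, and in Control + rFibcd1 at 2.40, 1.15, 0.532, 0.680 and 1.19 TPM. Every LLC mouse was thus above every Control mouse, whereas the treated tumor-bearing mice fell apart into replicates 2 and 3, near LLC, and replicates 1 and 4, in the Control range. The change from Control to LLC was 1.09 ± 0.26 (adjusted p = 0.0122, limma).

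Trim34a, a close relative of Trim5, was at 3.55, 3.88, 2.78, 3.08 and 1.94 TPM in Control, at 7.06, 6.91 and 6.95 TPM in LLC and at 2.62, 5.23, 6.81 and 3.21 TPM in LLC + rFibcd1. The change from Control to LLC was 1.00 ± 0.26 (adjusted p = 0.0143), and all treated tumor-bearing mice lay below all untreated ones. Of its 100-base stretches 21.0% are shared with Trim34b, and an antisense gene covers 23.5% of its exon bases, so its level is uncertain; Trim34b itself reached at most 0.188 TPM.

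Trim30a, which restrains signaling from Toll-like receptors, was at 4.46, 4.07, 3.63, 4.16 and 3.40 TPM in Control, at 6.67, 6.73 and 7.62 TPM in LLC and at 3.48, 6.56, 6.95 and 3.56 TPM in LLC + rFibcd1. Its relatives Trim30b (0.274 ± 0.153 TPM in Control, 1.23 ± 0.09 in LLC) and Trim30d (1.64 ± 0.28 and 3.20 ± 0.43 TPM) followed it, as did Trim12a (3.28 ± 0.45 and 5.48 ± 0.62 TPM) and Trim12c (4.65 ± 0.64 and 7.59 ± 0.67 TPM; SD, n = 5 and 3). The changes were 0.82 ± 0.23 for Trim30b (adjusted p = 0.0177), 0.70 ± 0.21 for Trim30a (0.0220), 0.67 ± 0.21 for Trim30d (0.0252), 0.61 ± 0.19 for Trim12c (0.0223) and 0.60 ± 0.19 for Trim12a (0.0238). Shared 100-base stretches make up 11.7% of Trim5, 8.05% of Trim12c, 2.87% of Trim12a, 4.41% of Trim30a and 4.57% of Trim30d, so the counting may have divided some reads among these copies.

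**Figure D4:**
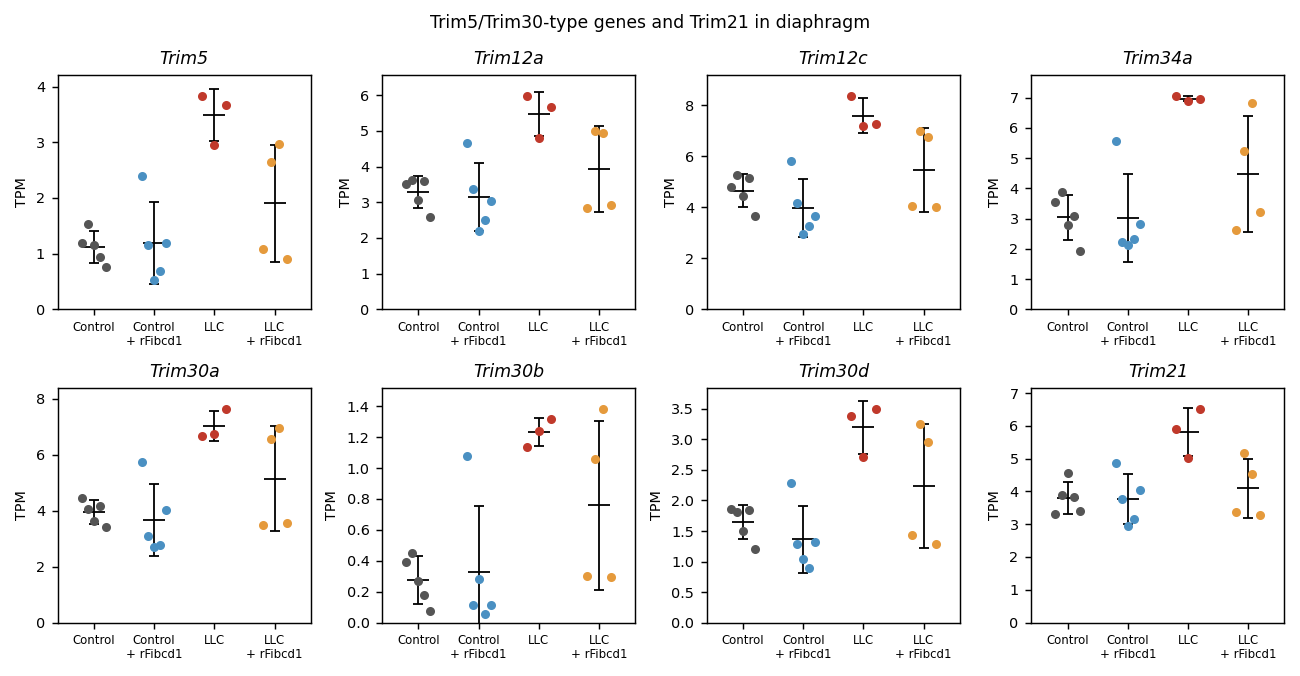
TPM of the 7 tested Trim5/Trim30-type genes and Trim21 in every mouse (points), with mean and SD (black); the axes start at 0. In each panel the 3 LLC mice lie above all 5 Control mice, and the LLC + rFibcd1 mice form a high pair (replicates 2 and 3) and a low pair (replicates 1 and 4).

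B cell and macrophage markers were high in the same mice. The 7 genes summed to 13.6 to 20.6 TPM in Control and 32.5 to 36.4 TPM in LLC. In LLC + rFibcd1 they summed to 15.8, 30.7, 32.8 and 16.2 TPM in replicates 1 to 4, where the B cell markers summed to 20.6, 147, 316 and 25.1 TPM and the macrophage markers to 416, 950, 611 and 370 TPM. In Control + rFibcd1, replicate 1 had 27.5 TPM of the 7 genes with 160 TPM of B cell markers, and the remaining 4 mice had 11.8 to 16.2 TPM with 3.93 to 31.8 TPM. T cell markers summed to 24.8 to 41.6 TPM in LLC and 1.09 to 14.9 in Control. Adipocyte markers summed to 188 to 954 TPM in LLC and 55.6 to 361 in Control. In Control + rFibcd1 replicate 1 they were at 434 TPM, against 70.7 to 96.7 in the remaining 4 mice. In LLC + rFibcd1 replicates 1 to 4 they were at 244, 384, 264 and 70.7 TPM. Mesothelial markers summed to 83.9 to 150 TPM in LLC and 49.8 to 129 in Control. The part of either list in the values of the 7 genes was not tested. Neutrophil markers were high in some mice with a low sum of the 7 genes. They summed to 89.1 TPM in LLC + rFibcd1 replicate 1 and to 78.2 TPM in Control + rFibcd1 replicate 3. The latter had the lowest sum of the 7 genes. Among mice with high sums of the 7 genes, they were at 206 and 68.3 TPM in LLC + rFibcd1 replicates 2 and 3. In Control + rFibcd1 replicate 1 they were at 25.2 TPM. LLC mice had 44.9 to 106 TPM of them and Control mice 1.84 to 14.2 TPM. With the B cell markers' score as a covariate in the model, 0 of the 38 members were called from Control to LLC (limma; 7 at an unadjusted p under 0.05) and the median change of the 7 genes was 0.14, with 0.0676% of all genes called. As the LLC mice all had high marker sums, leukocyte content and tumor cannot be told apart in this comparison.

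**Figure D5:**
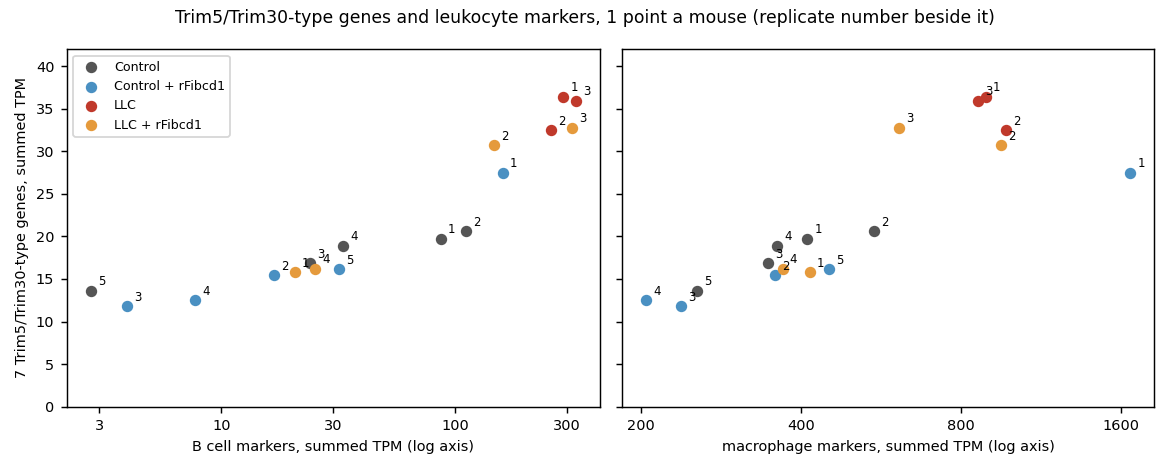
Summed TPM of the 7 Trim5/Trim30-type genes against the summed TPM of 8 B cell markers (left) and 7 macrophage markers (right, both on log axes), with 1 point a mouse and its replicate number. LLC + rFibcd1 replicates 1 and 4 lie with the Control mice and replicates 2 and 3 near the LLC mice; Control + rFibcd1 replicate 1 lies at 27.5 TPM.

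The innate immune members outside that group are read against the 29.7% of all genes that were higher in LLC and their median change of 0.16. Trim21, a cytosolic receptor for antibody-coated pathogens, was at 3.31, 3.89, 4.58, 3.82 and 3.40 TPM in Control, at 5.89, 5.03 and 6.51 TPM in LLC and at 3.37, 5.16, 4.53 and 3.29 TPM in LLC + rFibcd1. The LLC mice did not overlap the Control mice (0.51 ± 0.14, adjusted p = 0.0180), while 1 treated mouse lay within the LLC range. Of 9 innate members, 7 were tested and 5 were higher in LLC, Trim21, Trim25, Trim26, Trim27 and Trim56, with a median change of 0.36. Trim25, which ubiquitinates the RNA sensor RIG-I, rose from 8.30 ± 0.54 to 12.2 ± 0.4 TPM (0.50 ± 0.13, adjusted p = 0.0132). After median-ratio scaling 2 of the 7 were called higher, and 3 after rescaling without mitochondrial genes. In the pathway around Trim25, 8 of 10 RIG-I pathway genes were higher in LLC and 0 lower (median change 0.42), among them Irf7, an interferon-induced transcription factor (0.77 ± 0.14, adjusted p = 0.00897), and Ddx58, which encodes RIG-I (0.61 ± 0.16, adjusted p = 0.0152). Of 14 interferon-stimulated genes, 13 were tested, 5 were higher and 0 lower (median change 0.27), a share higher that is not far from that of all genes. Oas1a was among the 5 (0.91 ± 0.22, adjusted p = 0.0128), and Ifit1 was not (0.17 ± 0.16, adjusted p = 0.406).

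TIF1 members bind chromatin and act in transcription. Trim28 (KAP1), the corepressor of KRAB zinc finger proteins, was at 23.1, 24.5, 20.8, 20.5 and 20.7 TPM in Control and at 28.2, 25.8 and 31.0 TPM in LLC. It was at 23.5, 20.1, 19.1, 17.1 and 19.9 TPM in Control + rFibcd1 and at 23.1, 26.7, 28.4 and 24.1 TPM in LLC + rFibcd1. The groups were apart in the first pair and overlapped by 1 mouse of each group in the second. It rose by 0.35 ± 0.09 in each pair, with an adjusted p of 0.0149 and 0.0261 (limma). Trim33, which acts on SMAD proteins, was at 2.75 ± 0.31 TPM in Control and 3.32 ± 0.46 in LLC (0.20 ± 0.12, adjusted p = 0.176). Trim24, a coregulator of nuclear receptors, was at 7.61 ± 0.19 and 7.62 ± 0.64 TPM (SD, n = 5 and 3), a change of 0.00 ± 0.07 (adjusted p = 0.999). Relative to the median of all genes it lay lower, at -0.16 after median-ratio scaling (adjusted p = 0.0424). Trim66 stayed between 0.0744 and 0.166 TPM and was not tested.

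Among members with other roles, Trim44, which carries a ubiquitin-protease type zinc finger in place of a RING domain, had the smallest p of the family. It was at 17.2, 17.3, 16.5, 16.2 and 15.5 TPM in Control, at 24.2, 19.9 and 26.4 TPM in LLC and at 19.1, 21.1, 19.7 and 18.0 TPM in LLC + rFibcd1. The LLC mice lay above the Control mice without overlap, and the change was 0.47 ± 0.09 (adjusted p = 0.00926). From Control + rFibcd1 (14.2 to 18.9 TPM) to LLC + rFibcd1 it was 0.27 ± 0.09 (adjusted p = 0.060).

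Trim59, a membrane-anchored member, had a change of 1.13 ± 0.29 (adjusted p = 0.0135). It was at 0.961, 1.18, 0.698, 0.609 and 0.420 TPM in Control, at 2.65, 2.56 and 3.32 TPM in LLC and at 0.465, 1.24, 3.44 and 0.655 TPM in LLC + rFibcd1. Its highest value was in LLC + rFibcd1 replicate 3, the treated mouse with the highest B cell marker sum. That mouse also had the highest proliferation marker sum, at 12.4 TPM. Proliferation markers summed to 6.88 to 10.8 TPM in LLC against 1.20 to 4.28 in Control, and their part in this change was not tested.

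Trim16, which acts on damaged lysosomes, was at 22.8, 20.8, 27.7, 26.5 and 26.7 TPM in Control, at 20.9, 23.2, 21.1, 20.4 and 24.2 TPM in Control + rFibcd1, at 19.4, 18.0 and 19.0 TPM in LLC and at 19.4, 19.0, 19.0 and 17.2 TPM in LLC + rFibcd1. All 7 tumor-bearing mice lay below all 10 tumor-free mice, which was so for this member only among the 38 and for 0.526% of all genes. It fell by 0.38 ± 0.09 from Control to LLC (adjusted p = 0.0111). It was also the 1 member with an unadjusted p under 0.05 between the tumor-free groups (-0.17 ± 0.07, adjusted p = 0.927, limma).

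Trim10, known from erythroid cells, was at 0.496, 0.124, 0.186, 0.0891 and 0.424 TPM in Control and at 0.375, 1.03 and 1.75 TPM in LLC. The groups overlapped, the change was 0.65 ± 0.23 (adjusted p = 0.0365), and without LLC replicate 3 it was 0.41 (adjusted p = 0.221). The call was also lost with a pseudocount of 0.1 TPM (adjusted p = 0.0508), after median-ratio scaling (0.061) and after rescaling without mitochondrial genes (0.0526). The 6 red cell markers summed to 14168 to 46940 TPM in LLC against 3848 to 20312 in Control, and their part in it was not tested. Trim35, the third in level, was at 47.5 to 48.3 TPM in LLC and 46.8 to 57.6 in Control (-0.13 ± 0.07, adjusted p = 0.16), and fell by the test after median-ratio scaling (-0.31, adjusted p = 0.0194) and after rescaling without mitochondrial genes (-0.24, adjusted p = 0.0335). Trim41 rose from 18.8 ± 0.6 to 21.8 ± 1.0 TPM (0.21 ± 0.06, adjusted p = 0.0153) but by 0.03 after median-ratio scaling (adjusted p = 0.589). Trim8, which acts on cytokine signaling, was at 17.1 ± 2.9 and 20.1 ± 1.7 TPM (0.23 ± 0.13, adjusted p = 0.158).

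The remaining lists are short. Of 5 organelle members, 1 rose (Trim59) and 2 fell (Trim16 and Trim23), where 29.7% of all genes rose and 6.02% fell. Of 4 NHL and filamin-repeat members, 2 were tested and Trim3 rose (0.25 ± 0.07, adjusted p = 0.0188), a call that was lost after median-ratio scaling (0.371 as the lowest adjusted p of the 2) and after rescaling without mitochondrial genes (0.102). It was also lost without LLC replicate 1 (lowest adjusted p of the 2, 0.0766) or LLC replicate 3 (0.0734). Of 4 microtubule-binding COS-box members, 1 was tested and not called (Trim46, 0.75 ± 0.33, adjusted p = 0.0829). Among 14 listed members known from erythroid cells, gut, testis, oocyte or embryo, 1 was tested (Trim10). Members below the filter reached at most 1.67 TPM (Trim14). Of the E2 and E1 enzymes and ubiquitin-like genes that TRIM ligases work with, 15 were tested, 5 were higher (Uba1, Uba7, Ube2d2a, Ube2l6 and Isg15) and 1 lower (Ube2d1) in LLC, a share higher that is close to the 29.7% of all genes, with a median change of 0.21 against 0.16. Trim63 (MuRF1) and Trim32 had been set aside and were not called in LLC (adjusted p of 0.762 and 0.138).

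Treatment of tumor-bearing mice moved no member past the threshold. From LLC to LLC + rFibcd1, 0 of 38 members were called (limma), where 0.113% of all genes were, and Dunn's rank test called 0 as well. At an unadjusted p under 0.05 there were 14 members, 2 higher (Trim55 and Trim72) and 12 lower, 36.8% against 22.7% of all genes. With over 50% change there were 3 members, all lower (4.10% of all genes). The count of 14 became 1 higher and 1 lower without LLC replicate 3, and 2 higher and 18 lower without LLC + rFibcd1 replicate 3. Under median-ratio scaling it was 2 higher and 6 lower. The shares of all genes at this threshold were not taken for these fits. Of the 38 members, 32 were lower, with a median change of -0.17 against -0.11 over all genes. The lowest adjusted p were 0.133 for Trim55 (0.28 ± 0.07), 0.165 for Trim37 (-0.33 ± 0.10) and 0.190 for Trim21 (-0.43 ± 0.15). Trim37, a ligase of peroxisomes and centrosomes, was at 3.24, 2.95 and 3.17 TPM in LLC and at 2.26, 2.33, 2.41 and 2.08 TPM in LLC + rFibcd1, with 2.29 to 2.78 TPM in Control. Its treated mice were all below the untreated tumor-bearing ones. The groups did not overlap in 6 members, Trim55 and Trim72 upward and Trim56, Trim34a, Trim12c and Trim37 downward, 15.8% against 14.6% of all genes. Both comparisons share the 3 LLC mice, so low LLC values of Trim55 or high ones of Trim34a enter each of them. Without LLC + rFibcd1 replicate 3, Trim59 was called lower (-1.12, adjusted p = 0.0484).

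In tumor-free mice, rFibcd1 gave 0 calls among the 38 members and among all genes (0%, limma, lowest adjusted p of a member 0.927), with 1 member at an unadjusted p under 0.05 (4.39% of all genes) and 0 calls by Dunn's test. The next lowest p were those of Trim35 (-0.12 ± 0.06, adjusted p = 0.927) and Trim45 (0.11 ± 0.06, adjusted p = 0.927), which was at 0.98 ± 0.10 TPM in Control and 1.13 ± 0.08 in Control + rFibcd1.

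Among treated mice, the tumor gave fewer calls. From Control + rFibcd1 to LLC + rFibcd1, 2 members were called, Trim28 higher and Trim7 lower (5.26%, against 8.06% of all genes), with a median change of 0.17 against 0.11 over all genes. At an unadjusted p with over 50% change there was 1 (2.69% of all genes). The 7 Trim5/Trim30-type genes had changes of 0.24 to 0.44 there and none was called (lowest adjusted p = 0.165, Trim30d), against 0.60 to 1.09 in the untreated pair. This count rested on single mice: without Control + rFibcd1 replicate 1, the mouse with high macrophage markers, 13 members were called, 12 higher and 1 lower, among them Trim25 (0.45, adjusted p = 0.0034) and 5 of the 7 Trim5/Trim30-type genes, Trim34a (0.63), Trim30b (0.57), Trim30d (0.55), Trim30a (0.52) and Trim12c (0.49), with adjusted p of 0.0369 to 0.0454, while the share of all genes called rose to 21.7%. Without Control + rFibcd1 replicate 2 or 4 or LLC + rFibcd1 replicate 2 there were 0, where 4.27%, 4.47% and 3.70% of all genes were called. The difference between the 2 tumor effects was tested as an interaction, which called 0 members and 0% of all genes (limma). Trim55 was the 1 member with an unadjusted p under 0.05 (0.29 ± 0.09, adjusted p = 0.274, limma; 8.58% of all genes), followed by Trim21 (-0.41 ± 0.20, adjusted p = 0.591) and Trim37 (-0.27 ± 0.13, adjusted p = 0.593). The members' tumor effects were therefore not shown to differ with treatment.

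Over all mice, 7 tumor-bearing against 10 tumor-free, 25 members were called, 21 higher and 4 lower (65.8%, against 44.8% of all genes, 38.8% higher and 5.98% lower), and these were the same 25 as between LLC and Control. With an unadjusted p and over 50% change there were 4 (7.58% of all genes). Trim44 had the smallest p again (0.36 ± 0.06, adjusted p = 0.00146), followed by Trim7 (-0.40 ± 0.07, 0.00162), Trim28 (0.34 ± 0.06, 0.00208) and Trim16 (-0.30 ± 0.06, 0.00215). The Trim5/Trim30-type genes had changes of 0.39 to 0.69, below those of LLC alone, with 2 of the 4 treated tumor-bearing mice at the Control level.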

How the data were processed

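Per the labels and the study's methods, paired reads of poly(A) RNA were trimmed, aligned to the mouse genome (mm10, GRCm38) and counted in CLC Genomics Workbench; the annotation release is not given in the sources used here. The authors deposited TPM values, which carry no counts, so no count test was run. Depth was estimated from the steps of low values (80.8% to 83.5% within 0.02 of a whole read) with GENCODE vM21 exon lengths.

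TPM plus a pseudocount of 1 was log2-transformed, and the 13305 genes that reached 1 TPM in 3 or more samples were fitted in limma 3.58.1 (R 4.3.3) with the 4 groups in 1 model, 13 residual degrees of freedom and an expression trend. Tests are two-sided. P-values were adjusted over all genes, and 6 contrasts were made. With this pseudocount, changes of low genes are understated. The labels do not say that samples of a group came from separate cages or litters, so p-values measure the spread between these samples.

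The members and gene lists were chosen with earlier results of these data known. Named were the muscle and TIF1 members, the 10 highest in Control, the 10 largest called changes in LLC and the 3 lowest p of the remaining contrasts; further names were chosen after their values were seen. The fit was tested on simulated data. Same-numbered samples did not deviate together (22 pairs, r of -0.459 to 0.485, 4 over 0.1).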

Additional observations from a re-analysis of the deposited data

Results flagged for a closer look

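Of 75 groups of 4 or 5 mice 5 held a value far from the rest of the group; chance alone marks about 1 in 20 groups. Trim72 in LLC + rFibcd1 replicate 1 was at 298.4 TPM, with the remaining 3 mice at 265.1 to 269.9. Trim16 in LLC + rFibcd1 replicate 4 was at 17.2 TPM, below 19.0 to 19.4. Control + rFibcd1 replicate 1, the mouse with 1664 TPM of macrophage markers, was high in 3 members: Trim8 at 18.7 TPM against 14.7 to 15.3, Trim34a at 5.56 TPM against 2.12 to 2.83, and Trim30b at 1.08 TPM against 0.0566 to 0.282. The part of the marker levels in these values was not tested.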

How the results depend on the processing

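From Control to LLC, 25 of 38 members were called (35.8% of all genes). The count was 15 of the 22 members with a mean of at least 5 TPM (37.7% of all such genes), 10 at an unadjusted p with over 50% change (12.7%), and 0 with the replicate block (0.0376%; 25 members at an unadjusted p under 0.05), with the B cell score as covariate (0.0676%; 7 members at an unadjusted p under 0.05, 4 higher and 3 lower) or in Dunn's test (0%; 22 members at an unadjusted p under 0.05). Leaving out single mice gave 0 to 26. Trim24 turned from 0.00 to -0.16 under median-ratio scaling, which removes the shift of the median gene. From LLC to LLC + rFibcd1 the count of 0 became 3 at the unadjusted p with over 50% change (4.10%), and 0 to 1 on leaving out mice. From Control + rFibcd1 to LLC + rFibcd1 the count of 2 (8.06% of all genes) became 4 of the 22 with a mean of at least 5 TPM (14.2%), 4 under median-ratio scaling (3.92%), 1 with the replicate block (3.70%), 1 with the B cell score (4.96%), 0 in Dunn's test (0%) and 1 at the unadjusted p with over 50% change (2.69%). Leaving out mice gave 0 to 13, with 4 without Control replicate 2 (7.82%) and 1 without Control + rFibcd1 replicate 3 (5.13%) or LLC + rFibcd1 replicate 3 (3.59%). For tumor-bearing against tumor-free mice the count of 25 (44.8% of all genes) became 15 of the 22 with a mean of at least 5 TPM (48.9%), 16 with the replicate block (28.4%), 3 with the B cell score (4.99%) and 4 at the unadjusted p with over 50% change (7.58%), and 20 to 26 on leaving out mice. Counts between tumor-free groups and in the interaction were 0 throughout. Same-numbered mice do not deviate together, so no pairing is assumed. The causes were not tested. With 3 LLC mice the precision is limited.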
